A study of Homo sapiens with 4 samples.

Results

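The genes described are 10 classical targets of the transcription factor NF-kB: the chemokines CXCL1, CXCL2, CXCL3, IL8 (also called CXCL8) and CCL20, the feedback inhibitors NFKBIA and TNFAIP3, the ubiquitin ligase BIRC3, and the NF-kB subunits RELB and NFKB2. Their rows were taken by gene symbol from the 53617 genes in the deposited tables, with no threshold on a value, though the set was proposed with earlier results of these data known. All 10 were present in both tables, with 55 transcripts between them, and none of those transcripts had a failed estimate.

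Expression was measured by RNA sequencing in HT29, an established human colon adenocarcinoma line, at passages 12 to 13. The 4 groups were cells given a miR-23b precursor (a synthetic RNA that raises the microRNA), cells given an antimir (an oligonucleotide that blocks it), and a control transfection for each, at 50 nM ("50nm" in the labels). RNA was taken 48 h after transfection, with a medium change at 24 h, and every group had 1 library from 1 cell line. No stimulus of NF-kB, such as TNF or IL-1, is named in the labels, the sequence of the control oligonucleotides is not given there, and no difference below has a replicate check.

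NF-kB is a family of dimeric transcription factors held in the cytoplasm by inhibitors, chiefly the NFKBIA product IkB-alpha. Signals from TNF, IL-1 or Toll-like receptors activate the IkB kinase complex, the inhibitor is degraded, and the dimer binds kappaB sites in the promoters of its targets. In colon epithelium these targets include chemokines that draw neutrophils (CXCL1, CXCL2, CXCL3 and IL8) or dendritic cells and lymphocytes bearing CCR6 (CCL20), together with inhibitors that end the response.

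The kappaB sites are shown because they are the sequence feature by which these genes are grouped. RefSeq promoters (GRCh38.p14, 300 bases, from 250 before to 50 after the start) were available for 9 members, and RELB had no entry. The 10-base kappaB consensus, searched by name on both strands, was found in 8 of the 9, against 5.909% of 35116 promoters. Members are counted as genes with a match in any of their 11 promoters, and the background as single promoters. The 9-base word GGAATTTCC, also searched on both strands, was present in 0.4613% of promoters and in 5 members, and in 4 of those it lay within a consensus match. IL8 held the 9-base word alone. The windows below are on the gene's strand, with the match in capitals.
CXCL1, chr4:73869304-73869333: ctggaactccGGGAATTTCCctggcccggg
CXCL2, chr4:74099254-74099283: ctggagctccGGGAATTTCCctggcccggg
CXCL3, chr4:74038749-74038778: ctggagctccGGGAATTTCCctggcccggc
IL8, chr4:73740468-73740496: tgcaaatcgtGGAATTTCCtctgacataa
CCL20, chr2:227813753-227813782: tgatcaatggGGAAAACCCCatgtggcaac
NFKBIA, chr14:35404811-35404840: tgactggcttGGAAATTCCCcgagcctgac
TNFAIP3, chr6:137867182-137867211: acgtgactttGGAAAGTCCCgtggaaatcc
BIRC3, chr11:102317275-102317304: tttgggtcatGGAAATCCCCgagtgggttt
NFKB2, chr10:102394461-102394490: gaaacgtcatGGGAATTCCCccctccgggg

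CXCL1, CXCL2 and CXCL3 carried the same 10 bases, 79, 78 and 79 bases before the start, and each also matched on the opposite strand 1 base further on. The match in IL8 began 91 bases before the start, that in CCL20 79 and that in NFKBIA 81. BIRC3 held 2 matches, 199 and 135 bases before the start, and TNFAIP3 held 2, at 67 and 55. The first of each is in capitals, and the second of TNFAIP3 lies partly in the lower-case flank shown. In CCL20, NFKBIA, TNFAIP3 and BIRC3 the consensus matched on the opposite strand only. For NFKB2, the consensus was found in 2 of its 3 RefSeq promoters, and the window is from the second, which held 4 matches over both strands. A match describes the letters in these windows only, and no binding was measured here.

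The microRNA under study and the 3' UTR words that pair with its seed are shown because the study was designed around targets of miR-23b. The seed, bases 2 to 8, is in capitals in the mature microRNA (RefSeq, GRCh38.p14, chr9:95085265-95085287, plus strand), and the complementary 7-base word is in capitals in the UTRs (GENCODE 29).
miR-23b-3p: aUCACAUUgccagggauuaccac
CXCL2 3' UTR: cagtgagatcAATGTGAcggcagggaa
IL8 3' UTR: ggtttgctagAATGTGAtatttgaagc
TNFAIP3 3' UTR: atggatgtaaAATGTGAaacgcccaac

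Of the 10 members, 3 held the word AATGTGA in their longest annotated 3' UTR, against 18.37% of 19163 genes. The word was followed by an A in TNFAIP3 alone, an 8-base form found in 8.725% of genes. The TNFAIP3 UTR was 3156 bases long, that of IL8 1252 and that of CXCL2 721, and the median over all genes was 1102 bases.

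Levels are given as FPKM, fragments per length of transcript and size of library, summed over the transcripts of a gene. The files hold no read counts, so the depth behind each value is unknown. In each of the 4 libraries NFKBIA was the highest of the 10 and NFKB2 the second, IL8 and RELB came next in either order, followed by BIRC3. NFKBIA lay at percentile 77.5 to 86.0 of the protein-coding genes detected in a library, and NFKB2 at 47.4 to 51.6. CXCL1, CXCL2, CXCL3, CCL20 and TNFAIP3 were under 2 FPKM in every library.

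**Figure D1:**
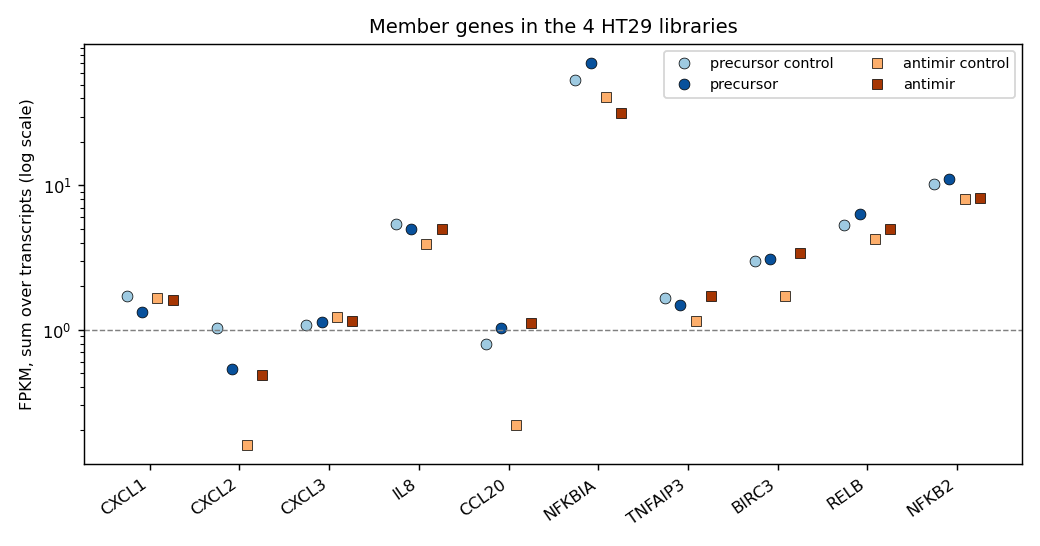
FPKM of the 10 genes (log axis) in the precursor library and its control (circles) and in the antimir library and its control (squares), 1 point per library. The dashed line is at 1 FPKM. NFKBIA stands above 30 FPKM in all 4 libraries, and within the antimir pair the CXCL2 and CCL20 points of the control lie below those of the antimir.

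The libraries carried the markers of colon epithelium: 8 of 8 passed a mean of 1 FPKM in both comparisons, with KRT8 between 2346 and 6798 FPKM. Leukocyte markers summed to 7.08 to 9.26 FPKM, mostly from CD68, with PTPRC, CD3E and FCGR3A at or below 0.053. Of the 7 leukocyte markers, 3 passed that mean in each comparison: CD68, CD14 and ITGAM. CD14 lay between 1.74 and 2.76 FPKM. ITGAM was at 0.894 against 1.16 FPKM with the precursor. With the antimir it was at 0.555 against 1.65, past 1.5-fold lower. No fibroblast or endothelial marker passed. Each table was normalised on its own, so comparisons were made within a table only. In bulk RNA, fewer cells expressing a gene and less RNA per cell cannot be told apart.

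Differences are on the log2(FPKM + 1) scale, treated library minus its control, centred on the median of the genes with a mean of at least 1 FPKM, and they understate the change of low genes. With the precursor, no member reached 1.5-fold. Of the 8 members past the minimum, 5 lay above 0 and 3 below, between -0.24 and 0.36, with a median of 0.010. Among all genes past the minimum, 3.36% were at least 1.5-fold higher and 3.32% at least 1.5-fold lower, and among protein-coding genes 0.529% and 0.617%.

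With the antimir, BIRC3 was past 1.5-fold, higher, and no other member passed the minimum and that fold. Again 8 members passed the minimum, 5 above 0 and 3 below, between -0.31 and 0.73, with a median of 0.14. The single member past the fold is 12.5% of the 8. The background was 5.07% of all genes higher and 2.9% lower, and 1.75% and 0.886% of protein-coding genes, so that the count of members rests on 1 gene.

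**Figure D2:**
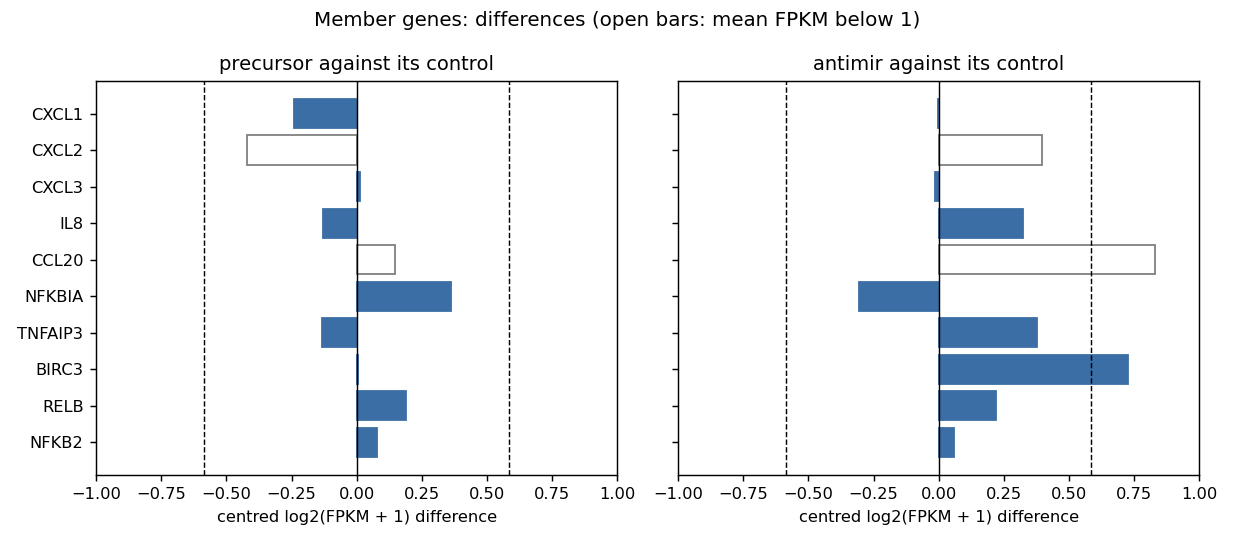
Centred log2(FPKM + 1) difference of each gene, treated library minus control, for the precursor (left) and the antimir (right). Dashed lines mark 1.5-fold, and open bars are genes whose mean FPKM was under 1. No bar of the precursor passes a line, and BIRC3 (0.73) is the filled bar that does so for the antimir.

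Among the neutrophil chemokines, IL8 was the most abundant. IL8 (ENSG00000169429.6, hg19 chr4:74606223-74609433) measured 4.97 FPKM with the precursor against 5.44 in its control, and 5.00 with the antimir against 3.92. It was slightly below its control with the precursor and above it with the antimir. The differences were -0.13 with the precursor and 0.32 with the antimir. Its 1705-base coding transcript ENST00000307407.3 held most of this, at 4.003 against 4.22 and 4.13 against 3.25, and none of its 3 transcripts was called in either of the authors' deposited tables.

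CXCL1 (ENSG00000163739.4, hg19 chr4:74735110-74736959), a ligand of the receptor CXCR2, measured 1.33 FPKM with the precursor against 1.71 in its control, and 1.59 with the antimir against 1.66. It was below its control with the precursor and level with it with the antimir. The differences were -0.24 and -0.0011. With whole-locus entries added to the sum, the antimir value was 0.066. Its coding transcript ENST00000395761.3 was at 1.14 against 1.71 with the precursor, which the authors' deposited table did not call (q = 0.172).

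CXCL3 (ENSG00000163734.4, hg19 chr4:74902306-74904524) was at 1.13 against 1.07 FPKM with the precursor and 1.15 against 1.22 with the antimir, differences of 0.013 and -0.014. Its summed level thus moved little, but its transcripts divided it differently. The coding ENST00000296026.4 held 0.144 against 0.271 in the precursor table and 0.725 against 0.541 in the antimir table, with the rest in non-coding forms. None of the CXCL3 transcripts was called.

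CXCL2 (ENSG00000081041.7, hg19 chr4:74962793-74965010) was at 0.536 against 1.02 FPKM with the precursor and at 0.485 against 0.158 with the antimir. It was under the minimum in both comparisons, where its differences were -0.42 and 0.40, and it entered no count above. In the antimir control only the coding ENST00000508487.1 gave a value, 0.158, against 0.153 in the antimir library. The difference there came from ENST00000296031.4, a non-coding type in GENCODE 29, at 0.333 against a listed 0.

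Reads of CXCL1, CXCL2 and CXCL3 may not be fully separable. The longest coding transcripts of CXCL1 and CXCL2 were 90.52% identical over 1086 aligned bases, and 16.2% of the 30-base words of CXCL1 also occurred in CXCL2. CXCL2 and CXCL3 were 83.33% identical and CXCL1 and CXCL3 81.72%. IL8 shared no 30-base word with the others. The sources used here do not say how reads matching several genes were shared out, so the split among these 3 genes is uncertain.

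CCL20 (ENSG00000115009.7, hg19 chr2:228678558-228682272), the ligand of CCR6, measured 1.02 FPKM with the precursor against 0.797 in its control, and 1.11 with the antimir against 0.219. Both treated libraries were above their controls, the antimir library by more. Its differences were 0.15 and 0.83, under the minimum in both comparisons. In the antimir table both coding transcripts were higher: ENST00000358813.4 at 0.480 against 0.219, and ENST00000409189.3 at 0.633 against a listed 0. The second was not called in the authors' deposited table (q = 0.190). The receptors were scarcely present in these cells, with CXCR1 listed at 0 in all 4 libraries, CXCR2 at most 0.011 FPKM and CCR6 at most 0.14.

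NFKBIA (ENSG00000100906.6, hg19 chr14:35870717-35873955), the inhibitor that NF-kB itself induces, measured 70.4 FPKM with the precursor against 53.6 in its control, and 31.8 with the antimir against 40.7. The differences were opposite, 0.36 and -0.31. Of its transcripts, 1 very short one differed the most in FPKM in each comparison. The 212-base ENST00000553342.1 was at 37.0 against 26.3 with the precursor and 13.6 against 25.0 with the antimir, and made up 42.9% to 61.5% of the gene's FPKM.

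The 1558-base coding NFKBIA transcript ENST00000216797.5 hardly differed, at 5.95 against 5.85 FPKM and 11.5 against 11.7. Without transcripts under 300 bases, a choice made after seeing the data, NFKBIA summed to 33.4 against 27.3 with the precursor (0.26) and to 18.2 against 15.6 with the antimir (0.24), so the antimir difference changed sign. With the most abundant transcript alone, which is the 212-base one, it was -0.80. The direction of NFKBIA with the antimir is therefore set by how its transcripts are summed.

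Another NFKBIA form, the nonsense-mediated decay transcript ENST00000554001.1 of 1396 bases, measured 1.07 FPKM in the precursor control and was listed at 0 with the precursor. It was the single member transcript called in the authors' deposited precursor table (q = 9.56e-06). In the antimir table it was at 3.19 against 0.00232 and was not called. Retained-intron forms ENST00000556664.1 (13.9 against 10.4) and ENST00000555371.1 (5.30 against 3.28) held much of the precursor-table remainder and were at 1.56 against 2.203 and 0.650 against 0.891 in the antimir table.

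TNFAIP3 (ENSG00000118503.9, hg19 chr6:138178423-138204449) encodes A20, a ubiquitin-editing enzyme that shuts off the pathway. It measured 1.47 FPKM with the precursor against 1.67 in its control, and 1.72 with the antimir against 1.15. It was below its control with the precursor and above it with the antimir. The differences were -0.13 and 0.38, the latter 0.59 and past 1.5-fold with a pseudocount of 0.1. The level was spread over 9 transcripts, and the 4432-base coding ENST00000237289.4 held 0.138 against 0.180 and 0.276 against 0.200, none of the 9 being tested by the authors in the antimir table. ENST00000536070.1 and ENST00000535574.1, with the status LOWDATA and no GENCODE 29 entry, were at 0.574 against 0.336 and 0.397 against 0.258 with the antimir. With the precursor they were also above their controls, at 0.422 against 0.163 and 0.206 against 0.192. With tested transcripts only, TNFAIP3 gave no value.

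BIRC3 (ENSG00000023445.8, hg19 chr11:102188215-102210134) encodes cIAP2, a ubiquitin ligase of the TNF receptor complex that also restrains the non-canonical pathway. It measured 3.09 FPKM with the precursor against 3.01 in its control, and 3.39 with the antimir against 1.72. It was level with its control with the precursor and above it with the antimir. The differences were 0.0067 with the precursor and 0.73 with the antimir.

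The 5197-base coding BIRC3 transcript ENST00000263464.3 was at 2.04 against 1.06 FPKM with the antimir, called in the authors' deposited table (q = 0.0199). With the precursor it was at 1.04 against 1.27 (q = 0.242, not called). Of its 7 transcripts, 4 were higher and none lower with the antimir, and 3 were listed at 0 in both libraries. BIRC3 stayed past 1.5-fold in each alternative that gave it a value, from 0.59 with its most abundant transcript alone to 0.98 with a pseudocount of 0.1. It gave no value at a minimum of 5 FPKM.

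RELB and NFKB2 form the non-canonical dimer of the pathway, NFKB2 being made as a p100 precursor that is cut to p52. RELB (ENSG00000104856.8, hg19 chr19:45504695-45541452) was at 6.34 against 5.34 FPKM with the precursor and 4.97 against 4.26 with the antimir, differences of 0.19 and 0.22. Both treated libraries were slightly above their controls.

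Within RELB the transcripts moved apart in the antimir table. The coding ENST00000505236.1 was at 1.55 against 0.450 FPKM (q = 0.308), while ENST00000540120.1, for which GENCODE 29 has no entry, was at 1.54 against 2.37. With that most abundant transcript alone the RELB difference was -0.38. No RELB transcript was called in either of the authors' deposited tables.

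NFKB2 (ENSG00000077150.12, hg19 chr10:104154229-104162281) was at 11.03 against 10.2 FPKM with the precursor and 8.22 against 8.08 with the antimir, differences of 0.077 and 0.060. Beneath this small sum 2 of its transcripts differed in opposite directions in the antimir table. The 3416-base coding ENST00000428099.1 was at 2.66 against 0.328, called in the authors' deposited table (q = 0.0182), and the 851-base non-coding ENST00000336486.4 was at 0.135 against 2.51 (q = 0.108).

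Summed by type, coding NFKB2 transcripts were at 7.01 against 3.65 FPKM with the antimir and the others at 1.22 against 4.43. With the precursor the coding sum was 6.29 against 5.99 and the remainder 4.75 against 4.24. The same ENST00000428099.1 was at 0.348 against 0.345 and ENST00000336486.4 at 2.68 against 2.66 in the precursor table. The abundant 3011-base coding ENST00000189444.5 was at 2.64 against 2.16 and 3.67 against 2.902. These assignments are estimates from overlapping transcripts and have no replicate.

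**Figure D3:**
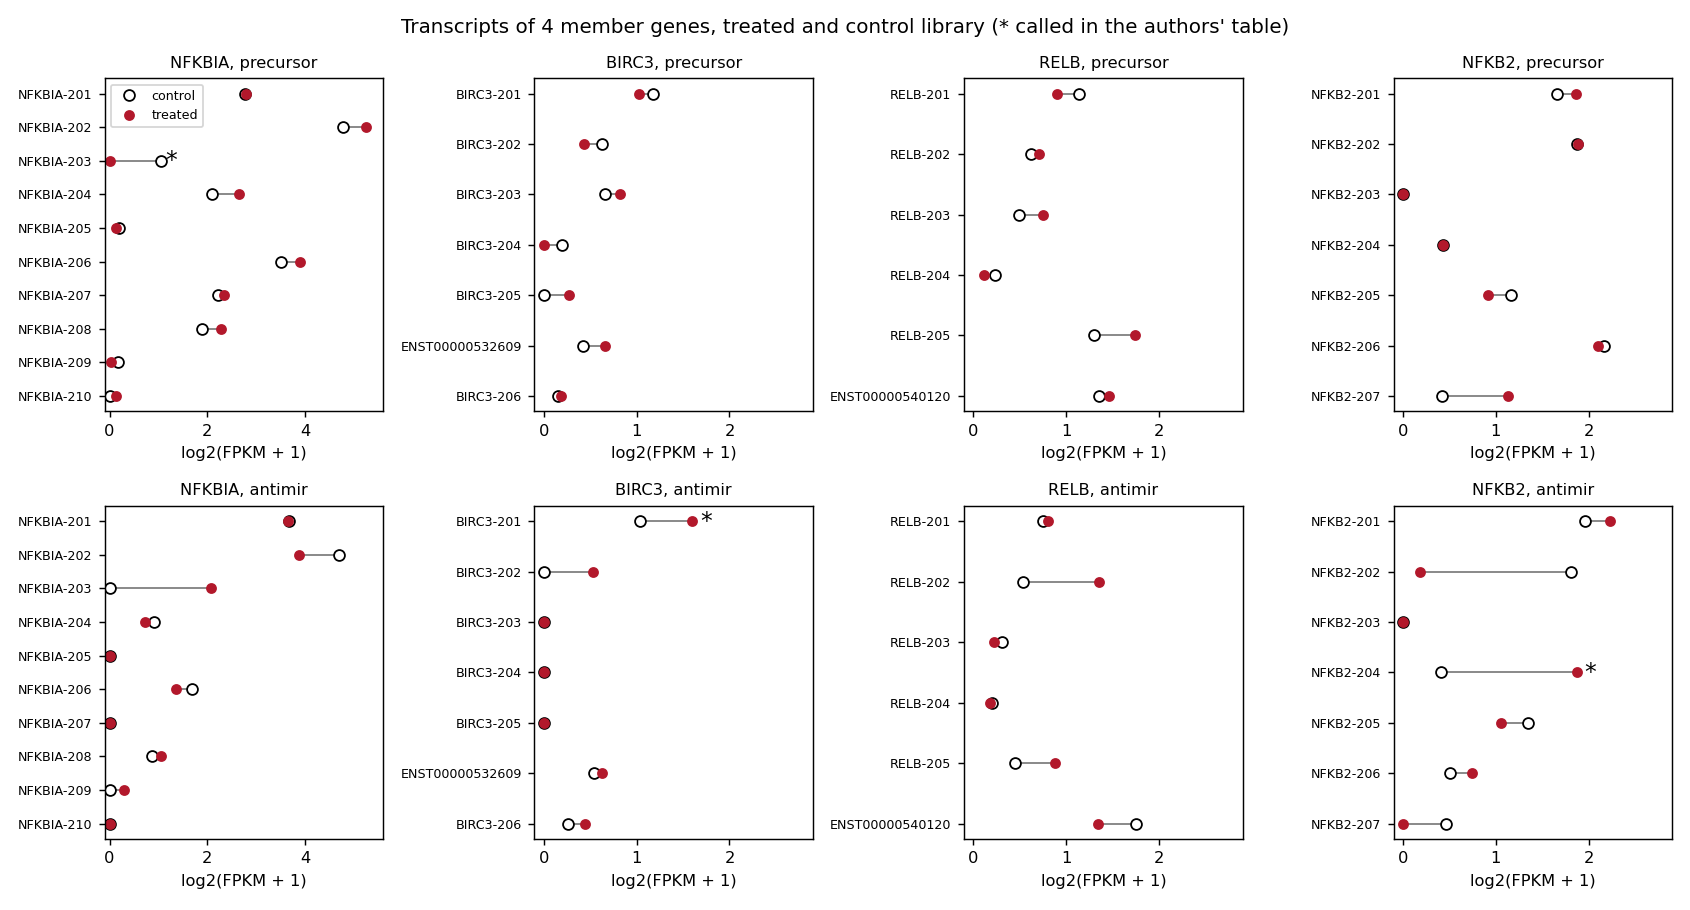
log2(FPKM + 1) of each transcript of NFKBIA, BIRC3, RELB and NFKB2 in the treated library (filled) and its control (open), for the precursor (top row) and the antimir (bottom row). Transcripts carry GENCODE 29 names, or their identifier where they had none, and asterisks mark calls in the authors' deposited tables. The points of NFKB2-204 (ENST00000428099.1) and of ENST00000336486.4, the second from the top, lie apart in opposite directions in the antimir panel and coincide in the precursor panel.

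Over all member transcripts, the authors' deposited precursor table tested 37 of 55 and called 0 higher and 1 lower, or 2.70% of those tested. Of all transcripts tested there, 6.91% were called higher and 6.66% lower. The antimir table tested 29 and called 2 higher and 0 lower, 6.90% of those tested, where 0.243% of tested transcripts were called higher and 0.171% lower. These calls compare 2 libraries, not 2 conditions. Between treated and control, 26 member transcripts were higher and 26 lower with the precursor, and 27 were higher and 17 lower with the antimir.

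The 3 genes holding a miR-23b-3p seed word, CXCL2, IL8 and TNFAIP3, were each lower with the precursor (-0.42, -0.13 and -0.13) and higher with the antimir (0.40, 0.32 and 0.38), none reaching 1.5-fold on the log2(FPKM + 1) scale. With a pseudocount of 0.1, TNFAIP3 passed that fold with the antimir, and the ratio of the CXCL2 FPKM values themselves was 0.523 with the precursor and 3.06 with the antimir. The CXCL2 word was found in the UTR of the coding ENST00000508487. That transcript was at 0.228 against 0.455 FPKM with the precursor, but at 0.153 against 0.158 with the antimir. The antimir difference of CXCL2 came from the non-coding ENST00000296031.4, at 0.333 against a listed 0. Other members were lower with the precursor and higher with the antimir under some settings. These were CXCL1 (-0.24 and 0.066) when whole-locus entries were added, and BIRC3 (-0.18 and 0.59) and NFKB2 (-0.095 and 0.29) with the most abundant transcript only. For NFKB2 that transcript was ENST00000471698.1 with the precursor but ENST00000189444.5 with the antimir, and ENST00000189444.5 was above its control in both comparisons. ENST00000471698.1 was at 3.29 against 3.49 and 0.670 against 0.420 FPKM. The pair of signs in the seed-word genes was seen after the values were known, and no test was made of it. CXCL2 was under the minimum, and TNFAIP3 gave no value with tested transcripts only. Among protein-coding genes past the minimum in both comparisons, 31.7% of 2255 with the word and 26.9% of 8641 without it had the same pair of signs.

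The rest of the pathway was read from lists of its subunits, inhibitors, kinases and adaptors, receptors, ligands, targets, other chemokines and chemokine receptors, 131 genes beside the members, some members also standing in a list. With the precursor, 84 of the 131 passed the minimum, 43 above 0 and 41 below, with 0 past 1.5-fold higher and 1 lower. With the antimir, 86 passed, 50 above 0 and 36 below, with 4 higher and 1 lower, beside the 5.07% and 2.9% of all genes. Among protein-coding genes 1.75% were higher and 0.886% lower with the antimir, and 0.529% and 0.617% with the precursor. Of the 4 pathway genes higher with the antimir, TNFRSF1B and CXCL10 passed the minimum only through the antimir library, where they were high. The medians were 0.0031 and 0.047, where the median of all genes is 0 by construction.

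Of the 3 other subunits, RELA, the main activating subunit, was at 105 against 72.5 FPKM with the precursor (0.51) and 35.2 against 47.8 with the antimir (-0.39). NFKB1, the precursor of p50, was at 24.3 against 24.6 (-0.040) and 9.89 against 16.6 (-0.66), past 1.5-fold lower with the antimir but -0.36 with its most abundant transcript. With the antimir the 557-base ENST00000509165.1 of NFKB1 was listed at 0 against 4.02 FPKM. The 3707-base ENST00000505458.1 was at 7.31 against 9.88, and no NFKB1 transcript was called there. REL was at 2.76 against 2.94 and 2.89 against 3.99. With its most abundant transcript only, RELA was 0.73 with the precursor and -0.76 with the antimir, past 1.5-fold in each. That transcript was the 215-base ENST00000526257.1, at 51.5 against 30.04 FPKM and 8.47 against 15.3, not called in either table. The authors' deposited precursor table called 3 other RELA transcripts higher and 2 lower, and the antimir table called none. Without transcripts under 300 bases RELA was 0.31 and -0.23, where NFKBIA was 0.26 and 0.24.

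Among 13 inhibitors, NFKBIA and TNFAIP3 included, none passed 1.5-fold in either comparison. CYLD, a deubiquitinase that restrains the pathway, came nearest, at 6.33 against 3.88 FPKM with the precursor (0.56) and 4.41 against 4.21 with the antimir (0.094). NFKBID was at 2.94 against 2.16 with the antimir (0.36). With the most abundant transcript only, the antimir values were 0.67 for CYLD, past 1.5-fold, and -0.15 for NFKBID. The list's medians were 0.017 and 0.084.

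Of 29 kinases and adaptors past the minimum, 1 was lower with the precursor and 2 were higher with the antimir, 1 of these being BIRC3. TAB1, an adaptor of the kinase TAK1, was at 31.2 against 53.5 FPKM with the precursor (-0.78) and 21.1 against 32.2 with the antimir (-0.55). IKBKE, an IkB kinase relative that also acts in interferon induction, was at 8.38 against 12.2 (-0.51) and 10.8 against 5.46 (0.91). Most of both IKBKE differences lay in ENST00000477884.1, at 5.00 against 8.06 and 8.30 against 3.07 FPKM. GENCODE 29 has no entry for it, and it was not called in either comparison. ENST00000367120.3 of IKBKE was at 1.06 against 1.22 and 1.37 against 1.57. IKBKB, the main catalytic IkB kinase, was at 16.5 against 23.7 (-0.52) and 10.04 against 9.47 (0.11). CHUK differed by -0.17 and 0.27, and IKBKG, the regulatory subunit of that complex, by -0.041 and 0.50. With the most abundant transcript only, the antimir values were -0.44 for IKBKG, -0.33 for IKBKB and -0.0074 for TAB1. In that setting the precursor values were -0.82 for IKBKB and -0.62 for IKBKE, both past 1.5-fold, and -0.55 for TAB1, no longer past it. Without transcripts under 300 bases TAB1 was -0.91 with the precursor and -0.79 with the antimir, past 1.5-fold in each. IKBKB was then -0.22 and 0.29. Much of the TAB1 difference lay in ENST00000462277.1, at 3.96 against 24.8 and 0 against 15.2 FPKM, not called in either comparison. GENCODE 29 gives it no length, so leaving out short transcripts could not remove it. The 3237-base coding ENST00000216160.6 was at 5.00 against 4.97 and 4.82 against 5.47. ENST00000480990.1 was higher, at 4.90 against a listed 0 and 7.15 against 2.96.

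TNF was listed at 0 in 3 libraries and at 0.058 FPKM in the antimir library. Its receptor TNFRSF1A was at 72.1 against 75.0 and 45.3 against 56.2 FPKM. Of 12 receptors past the minimum with the antimir, TNFRSF1B alone was past 1.5-fold (4.65 against 0.119, 2.37). It passed the minimum only through the antimir library, and 4.44 of its FPKM came from ENST00000539840.1, listed at 0 in the control and not called by the authors. None of the 3 ligands past the minimum, of 15 listed, passed the fold, TNFSF10 coming nearest at 25.8 against 17.5 with the antimir (0.58), and past it with the precursor (0.62 in place of 0.31) when the most abundant transcript was used.

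Of 21 other NF-kB targets past the minimum, 0 were past 1.5-fold with the precursor and 1 was higher with the antimir. That gene was CFB, complement factor B, at 8.99 against 8.42 FPKM with the precursor and 16.97 against 8.005 with the antimir (1.03). ICAM1, an adhesion molecule, was at 1.66 against 1.40 and 1.12 against 1.47. SOD2, a mitochondrial antioxidant enzyme, was at 52.0 against 45.8 and 28.4 against 38.8. With the most abundant transcript only, CFB was past 1.5-fold with the precursor as well (0.75), and ICAM1 turned from -0.18 to 0.18 with the antimir. For CFB with the precursor that transcript was the 736-base non-coding ENST00000497841.1, at 2.65 against 1.13 FPKM and called by the authors. The 2862-base coding ENST00000425368.2 of CFB was at 0.465 against 0.508 with the precursor and 2.81 against 1.19 with the antimir. With the antimir no CFB transcript was called. None of the 5 other epithelial chemokines past the minimum reached the fold.

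Interferon-inducible genes are given beside BIRC3 because they also differed in the antimir library. All 8 interferon-induced comparison genes were at least 1.5-fold higher with the antimir, with a median of 1.75, and 0 of 7 were higher and 1 was lower with the precursor. The chemokine CXCL10 was at 1.65 against 0.642 FPKM with the antimir (0.73), passing the minimum only through the antimir library, and CXCL11 was at 2.28 against 1.31 (0.54). Against these, the members' antimir median was 0.14. The interferon genes were chosen with their antimir values known, and their part in the BIRC3, CFB and IKBKE values was not tested.

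**Figure D4:**
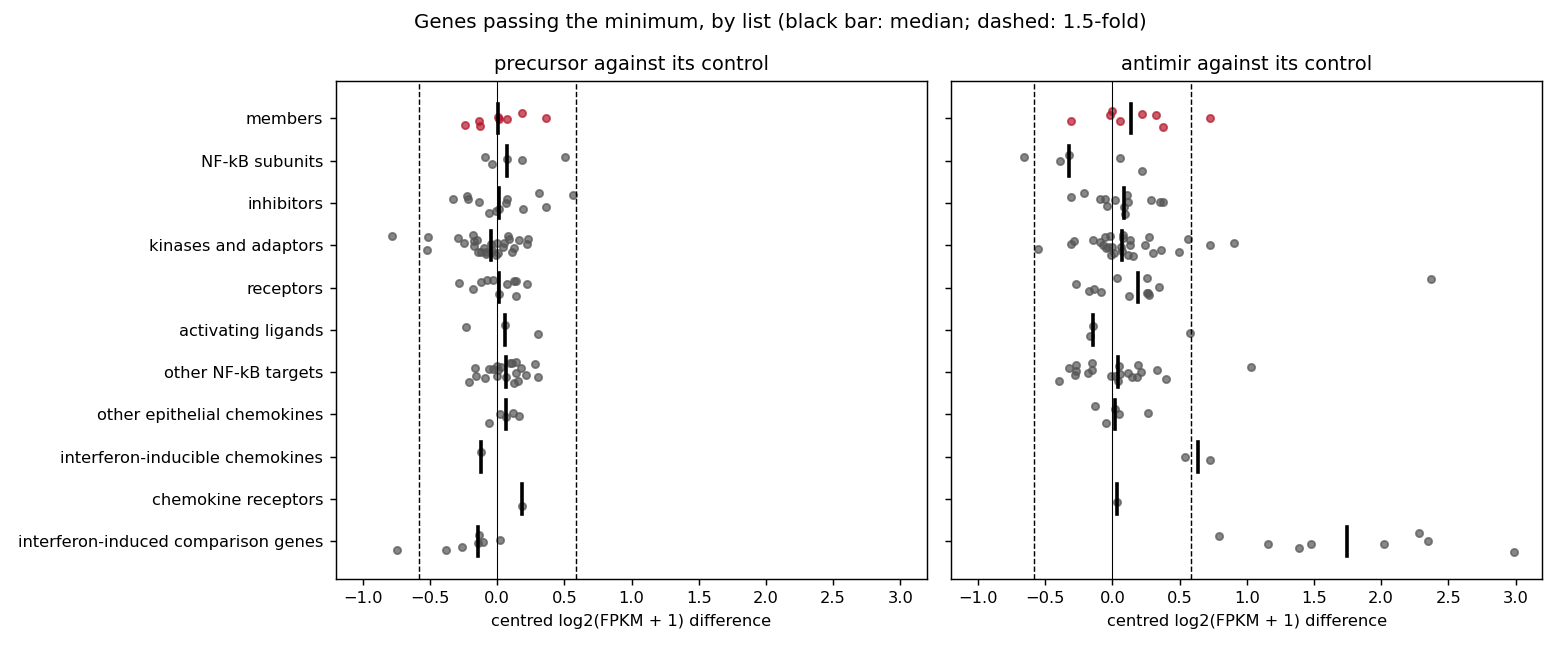
Centred log2(FPKM + 1) difference of every gene past the minimum, 1 point per gene, by list, for the precursor (left) and the antimir (right). Vertical jitter within a list has no meaning, and black bars are list medians. The members have medians of 0.010 and 0.14, and the interferon-induced comparison genes have a median of 1.75 with the antimir.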

How the data were processed

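RNA sequencing of 4 HT29 libraries was used, 1 per group. Per the submitters' processing notes, bcl2fastq 1.8.3, TopHat2 2.0.11, Cufflinks 2.2.0, Cuffdiff and the build hg19 were used; the sources used here give neither their order, settings nor annotation. Deposited by the authors were 2 tables of FPKM per transcript, 1 treated library against 1 other each, and per the file headers each entry has a status and the authors' p-value, q-value and call. Each table names 2 libraries, and the one ending in N was treated as the control. All 212874 entries per table were read, and 0 columns of no sample were used. The files hold no counts, so depth is unknown and no interval or floor is given.

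Gene FPKM summed the transcripts with a status other than failed (failed entries numbered 1321 for the precursor and 1528 for the antimir). Whole-locus entries were used only for genes with no transcript. Differences were log2(FPKM + 1), treated minus control, for genes with a mean of at least 1, less the median (0.022 for the precursor, -0.038 for the antimir), and counts used 1.5-fold with no test. The calculation was tested on simulated data. hg19 starts are printed 1-based. GENCODE 29, on another build, was matched by identifier without its version: 49 of the 55 member transcripts matched, so its types and lengths may come from a later version. Python 3.11.15, pandas 2.3.3 and numpy 2.4.6 were used. Alternatives were another pseudocount, other minimums, other choices of entries, and no centring.

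The members and lists were chosen with earlier results of these data known. Named genes were all 10 members, up to 4 genes per list with the largest difference in either comparison, a set of defining pathway genes, and the 5 genes nearest to the median pair of CXCL1, CXCL2, CXCL3 and IL8; not all are printed, and the chemokine receptors, interferon list and markers are given as background.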

Additional observations from a re-analysis of the deposited data

How the results depend on the processing

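Members past 1.5-fold with the antimir numbered 1 of 8, beside 1131 of 14190 among all genes. They were 2 of 8 with a pseudocount of 0.1 (BIRC3 and TNFAIP3), beside 1534 of 14190. With no filter they were 2 of 10 (BIRC3 and CCL20), beside 1656 of 53486. With the most abundant transcript only they were 2 of 6 (BIRC3 higher, NFKBIA lower), beside 1543 of 13505. At a minimum of 5 FPKM they were 0 of 2, beside 622 of 10197. With the precursor the count was 0 in each setting run. Pathway genes past the fold with the antimir went from 5 of 86 to 8 of 86 (pseudocount 0.1) and 3 of 62 (minimum of 5). With the precursor they went from 1 of 84 to 2 of 84 (pseudocount 0.1), 3 of 131 (no filter), 5 of 80 (most abundant transcript) and 2 of 84 (not centred). Among all genes with the precursor, 1135 of 16982 became 1492 of 16982, 1491 of 53501, 1422 of 16238 and 1128 of 16982 in those settings. At a minimum of 5 they became 625 of 12264. Called member transcripts, 2 with the antimir and 1 with the precursor, became 6 and 2 of 55 when a fold of 1.5 replaced the authors' call. That fold was not counted over all transcripts. The cause of these changes was not tested. Of 62 single-gene values under alternatives with the antimir, 2 came to pass the fold and 60 kept their side of it, as did all 65 with the precursor. Values near 0 or resting on unequal transcripts (CXCL1, NFKBIA, RELB, BIRC3 and NFKB2) changed sign under some setting without passing the fold on both sides. No paired analysis was possible because each group has 1 library, and no library could be left out.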

Other observations

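Among 8723 protein-coding genes with a mean of at least 5 FPKM in both comparisons, those whose pair of differences lay nearest to the median pair of CXCL1, CXCL2, CXCL3 and IL8 (-0.19 with the precursor, 0.16 with the antimir) were PRPF4B, TRIM68, HAT1, UBXN11 and RBL2, at Euclidean distances of 0.0031 to 0.0087. The median included CXCL2, which was under the minimum. The single chemokines lay away from it, CXCL1 at -0.24 and -0.0011, CXCL3 at 0.013 and -0.014, and IL8 at -0.13 and 0.32. The genes named are thus near the median, not near each chemokine. Likeness over 2 comparisons without replicates is a description only.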
